A study of Mus musculus with 10 samples.

Results

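The xenobiotic metabolism genes described here are 36 genes whose products sense, modify or export foreign chemicals, chosen by name as a list and found in the annotated expression table with a count in at least 1 library. They are 36 of 32132 genes with a count in the series, and all 36 passed the filter on low counts, which left 19615 genes for testing. RNA was sequenced from colons of adult wild-type C57BL/6 mice in 2 groups of 5 libraries. In the 4-HDHA group, mice drank 3% dextran sulfate sodium (DSS) for 7 days and were injected intravenously each day with 4-HDHA, a hydroxylated derivative of docosahexaenoic acid, written as 5 um in PBS at 200 ul per 20 g body weight. In the PBS group, mice drank the same DSS and received the same volume of phosphate-buffered saline (PBS). DSS injures the colonic epithelium and is a common way to provoke colitis in mice; every mouse here drank it, and no library came from a mouse without DSS, so the comparison shows the injection within DSS colitis only. The labels number the colons but do not state that each came from a different mouse, so the p-values measure the spread between these libraries.

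Foreign chemicals that enter the gut wall are handled in steps. Ligand-activated transcription factors (AHR, the aryl hydrocarbon receptor, and the nuclear receptors PXR, encoded by Nr1i2, and CAR, encoded by Nr1i3) bind drugs, plant compounds and microbial metabolites and switch on genes of the enzymes. Phase I enzymes (cytochromes P450, epoxide hydrolases, carboxylesterases) oxidise or hydrolyse the molecule, phase II enzymes (UDP-glucuronosyltransferases, sulfotransferases) attach a polar group, and efflux pumps return the product to the gut lumen. Several of the same P450s, epoxide hydrolases and carboxylesterases also act on the body's own fatty acids and lipids.

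Totals per library lay between 50915365 and 66470519 counts. The 17 epithelial marker genes were present in every library and summed to between 15262.1 and 23465.5 counts per 1000000 counts of the library (CPM) in the 4-HDHA libraries and between 14502.5 and 23356.5 CPM in the PBS libraries. Of 16 liver markers, 15 had a count, 3 were at 0 in every 4-HDHA library, and their sum was 102 to 212 CPM with 4-HDHA and 91.6 to 277 CPM with PBS. Most of that sum was Tat, at 136 ± 43.4 CPM with 4-HDHA and 166 ± 92.7 CPM with PBS. The hepatocyte gene Alb, at up to 0.506 CPM with 4-HDHA and 2.17 CPM with PBS, was the 1 liver marker of the 9 tested with an unadjusted p under 0.05 (lower). CPM values here use library totals after scaling by the trimmed mean of M values (TMM), and each fold change is the log2 ratio of 4-HDHA to PBS from edgeR's quasi-likelihood test. No gene of the 19615 reached an edgeR p of 0.05 after Benjamini-Hochberg adjustment, 0% of those tested, and the smallest adjusted p was 0.2825; DESeq2, run as an alternative, called 312 of 18268 genes with an adjusted p (1.71%), and 2911 genes (14.8%) had an unadjusted edgeR p under 0.05. Changes of these genes in whole colon can come from fewer cells of a type or from less RNA per cell, which cannot be told apart in bulk RNA.

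Levels of the 36 genes spanned from 0.166 to 175 FPKM (fragments scaled to the length of the gene model and the size of the library, which allows levels of different genes to be compared; mean of 10 libraries). The most abundant was the P450 Cyp2d34, with a mean of 208 FPKM in the 4-HDHA libraries and 142 FPKM in the PBS libraries. The carboxylesterases Ces2c and Ces2e, which hydrolyse ester drugs and, for Ces2c, triacylglycerol, followed at 122 and 107 FPKM over all libraries. The sulfotransferase Sult1b1 stood at 83.4 FPKM and the glucuronosyltransferase Ugt2b34 at 43.6 FPKM. The lowest 2 genes were those most closely tied to AHR, Cyp1a1 at 0.198 FPKM and the AHR repressor Ahrr at 0.166 FPKM.

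**Figure D1:**
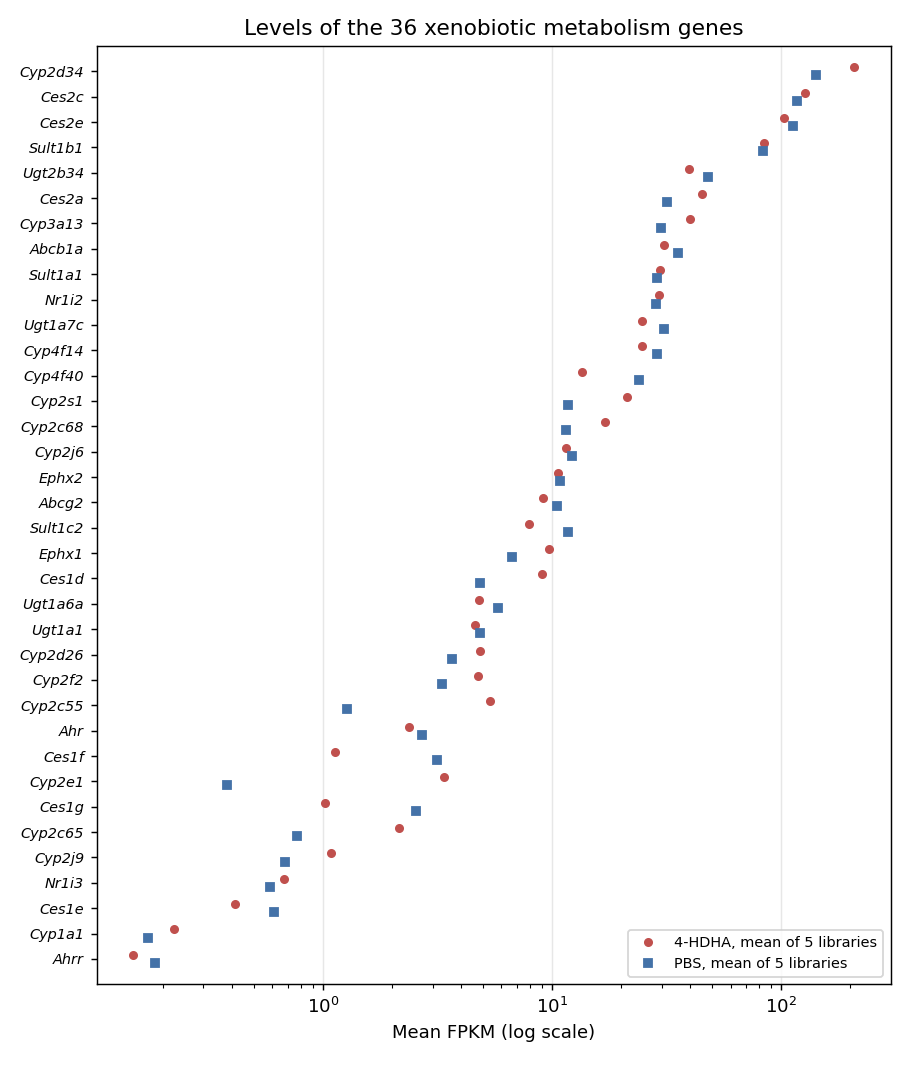
Mean FPKM on a log scale (x axis) of each of the 36 genes (y axis, ordered by the mean over all libraries) in the 5 4-HDHA libraries (circles) and the 5 PBS libraries (squares). Cyp2d34 leads at 208 FPKM with 4-HDHA and 142 FPKM with PBS, Cyp1a1 and Ahrr are lowest, and the widest gap between groups is that of Cyp2e1, at 3.35 FPKM with 4-HDHA and 0.378 FPKM with PBS.

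Taken by gene, the 36 were split evenly: 19 fold changes were positive and 17 negative, with a median of 0.01 on the log2 scale, and the median over all genes tested was also 0.01. At an unadjusted p under 0.05, 5 genes were higher with 4-HDHA (13.9% of the 36, against 7.39% of all genes tested), namely Cyp2e1, Cyp2c65, Cyp2s1, Ephx1 and Ces1d. Another 2 were lower (5.56%, against 7.45% of all genes tested), namely Cyp4f40 and Ces1g. None of the 36 passed after adjustment over all genes with edgeR. DESeq2 called Cyp2e1 higher and Cyp4f40 lower after adjustment, 1 gene each way, where it called 1.09% of genes higher and 0.613% lower. In data simulated from these libraries, the changed genes were drawn from those with a mean above 1 CPM. The recovery therefore does not cover lower genes such as Cyp1a1 (means of 0.714 CPM with 4-HDHA and 0.549 CPM with PBS). On these data edgeR recovered 39 of 100 genes changed 2-fold and 81 of 100 changed 4-fold, with 7 false calls. DESeq2 recovered 57 and 94, with 63 false calls, more than its threshold allows. The adjusted p-values of DESeq2 are therefore given as those of an alternative. A lack of adjusted edgeR calls does not show that a gene was unchanged. Cyp4f40 was also the only member whose 2 groups did not overlap, as in 1.63% of all genes tested in that direction and 2.79% in either. None of the 36 was higher in every 4-HDHA library than in every PBS library, which held for 1.16% of all genes. The count of higher genes was 2 without 4-HDHA replicate 2, and that of lower genes was 1 without any one of 4-HDHA replicates 1 and 2 and PBS replicates 1, 3 and 4.

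**Figure D2:**
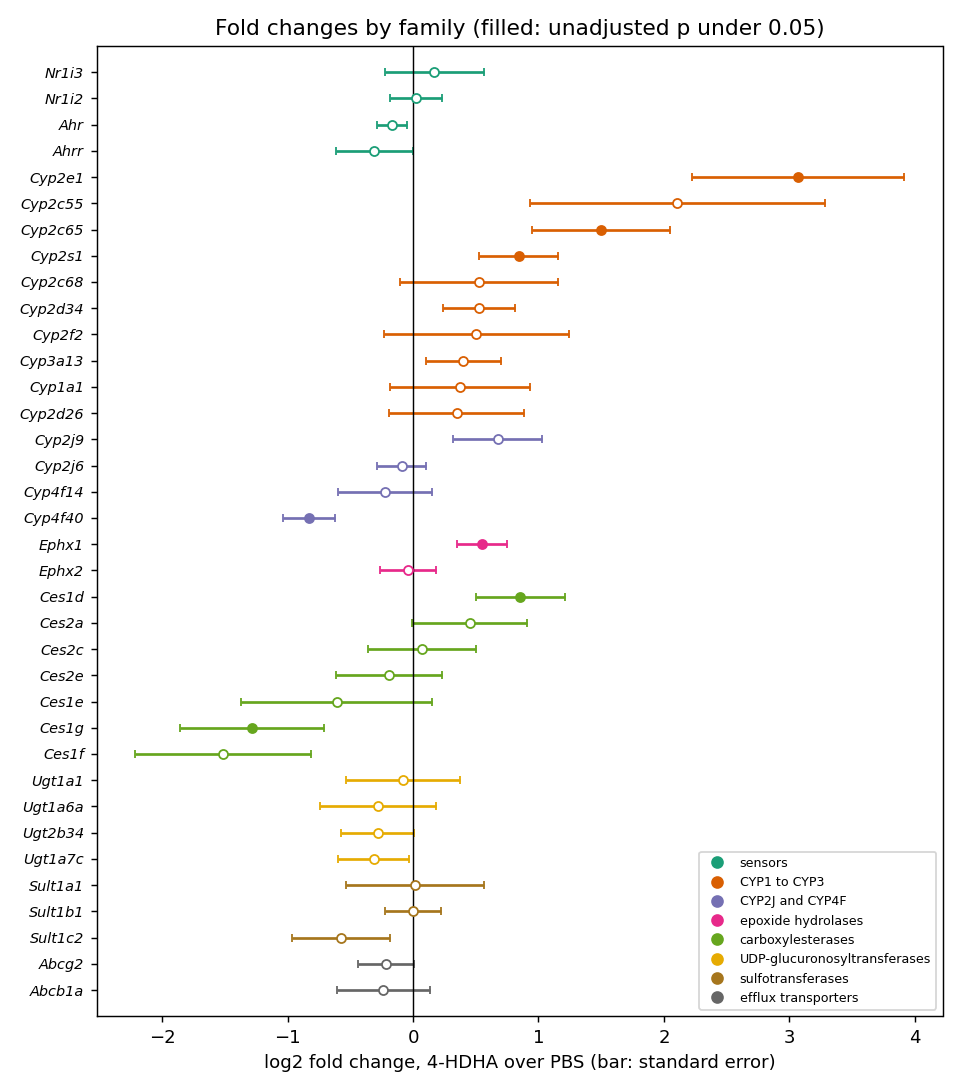
Log2 fold change of 4-HDHA over PBS (x axis; bars are standard errors) for the 36 genes, grouped by family and coloured by family; filled points have an unadjusted edgeR p under 0.05. The 10 genes of the CYP1 to CYP3 families without the Cyp2j genes, which are grouped with CYP4F, lie right of 0, from 0.35 to 3.07. The 4 UDP-glucuronosyltransferases lie left of it, from -0.31 to -0.08. Most of these fold changes are within the spread between libraries.

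The sensors did not differ beyond the spread between libraries. Ahr (chr12:35497974-35535038 on mm10, minus strand), the receptor for dioxins, tryptophan metabolites and plant indoles, was at 18.8, 14.6, 18.4, 14.7 and 15.7 CPM in 4-HDHA replicates 1 to 5 and at 18.4, 19.0, 19.7, 18.5 and 16.9 CPM in PBS replicates 1 to 5. The groups overlapped, with 3 of the 4-HDHA libraries below all PBS libraries, and the log2 fold change was -0.17 (SE 0.12, 95% interval -0.43 to 0.09, unadjusted p = 0.178). Ahrr (chr13:74211118-74292331, minus strand), a target of AHR that competes with it for its partner ARNT, was at 1.55, 1.41, 1.23, 1.52 and 2.24 CPM with 4-HDHA and at 2.96, 2.41, 1.77, 0.953 and 1.75 CPM with PBS. Its highest and lowest libraries were both PBS libraries, and the log2 fold change was -0.31 (SE 0.31, unadjusted p = 0.339).

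PXR was the sensor with the highest level. Nr1i2 (chr16:38248323-38294824, minus strand) averaged 29.2 ± 4.41 FPKM with 4-HDHA and 28.5 ± 6.20 FPKM with PBS (SD, n = 5 each), while Nr1i3 averaged 0.676 ± 0.249 FPKM with 4-HDHA and 0.584 ± 0.250 FPKM with PBS. By library, Nr1i2 was at 94.8, 96.6, 80.8, 61.8 and 85.4 CPM with 4-HDHA and at 94.0, 81.5, 46.0, 82.1 and 109 CPM with PBS. The PBS libraries spanned the whole 4-HDHA range, and the fold change was 0.02 (SE 0.21, 95% interval -0.43 to 0.48). Nr1i3 (chr1:171213970-171219001, plus strand) was at 4.92, 3.30, 3.90, 1.54 and 3.34 CPM with 4-HDHA and at 4.41, 1.62, 1.60, 2.69 and 4.82 CPM with PBS. These groups also overlapped throughout, with a log2 fold change of 0.17 (SE 0.40, 95% interval -0.70 to 1.04).

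Cyp1a1 (chr9:57687928-57703824, plus strand), the P450 most used as a readout of AHR activity, was near the lower limit of what these libraries measure, with 8 to 86 counts per library. It was at 0.960, 0.471, 0.123, 1.50 and 0.513 CPM in 4-HDHA replicates 1 to 5 and at 0.674, 0.635, 0.248, 0.745 and 0.443 CPM in PBS replicates 1 to 5. The 4-HDHA libraries held both the highest and the lowest value, and the log2 fold change of 0.37 had a standard error of 0.56 and a 95% interval of -0.86 to 1.61.

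AHR with ARNT binds DNA at the xenobiotic response element, whose core letters are GCGTG. The RefSeq promoters of the 2 AHR readouts (300 bases each, GRCm38.p6, from 250 bases before to 50 after the start) are given because both carry it, with each match in capitals. Ahrr has 3 matches (chr13:74292282-74292581, minus strand) and Cyp1a1 has 1 (chr9:57697363-57697662, plus strand).
Ahrr: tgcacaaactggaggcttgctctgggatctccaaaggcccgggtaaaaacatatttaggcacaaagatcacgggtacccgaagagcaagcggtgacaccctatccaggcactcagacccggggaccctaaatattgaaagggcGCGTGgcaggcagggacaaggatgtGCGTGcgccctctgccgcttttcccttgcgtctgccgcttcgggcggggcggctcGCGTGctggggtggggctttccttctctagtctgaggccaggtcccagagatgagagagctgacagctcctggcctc
Cyp1a1: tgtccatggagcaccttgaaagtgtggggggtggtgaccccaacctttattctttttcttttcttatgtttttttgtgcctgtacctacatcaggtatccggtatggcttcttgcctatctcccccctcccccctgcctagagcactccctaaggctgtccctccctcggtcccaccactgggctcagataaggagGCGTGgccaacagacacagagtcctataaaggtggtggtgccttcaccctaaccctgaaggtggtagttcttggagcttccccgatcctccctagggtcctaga
Searched on both strands (GCGTG or CACGC), the core was in 7 of the 38 promoters of the 31 members found in the promoter set used (18.4%). It was in 10639 of all 32851 promoters of that set (32.4%). Ahr, Cyp2d34, Ephx2, Ces1d and Ces1f were not in the set and were not searched. A match of these letters is a description and does not show a bound site.

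Among 13 listed partners and targets of AHR, 12 could be tested; 2 had an unadjusted p under 0.05 on the higher side, 2 on the lower side, and their median was 0.04. The 4 smallest p-values pointed in both directions, and the shares over all genes were those given above. Nfe2l2, which encodes the antioxidant regulator NRF2, averaged 144 ± 15.0 CPM with 4-HDHA and 185 ± 12.8 CPM with PBS (log2 fold change -0.37, SE 0.10, unadjusted p = 0.00392). Nqo1, a quinone reductase shared by the AHR and NRF2 programmes, averaged 5.32 ± 2.15 CPM with 4-HDHA and 12.2 ± 8.99 CPM with PBS (-1.20, SE 0.42), with PBS replicate 4 at 28.3 CPM. Cyp1b1, an AHR-regulated P450 of stromal cells, averaged 1.49 ± 1.36 CPM with 4-HDHA and 0.375 ± 0.257 CPM with PBS (1.99, SE 0.69). Aldh3a1, an aldehyde dehydrogenase, averaged 1.74 ± 1.07 CPM with 4-HDHA and 0.472 ± 0.291 CPM with PBS (1.89, SE 0.75), and its groups did not overlap. Of 15 partners and targets of PXR and CAR, 10 could be tested. Only 1 of the 10 had an unadjusted p under 0.05, on the higher side, where 7.39% of all genes tested were. It was Slco2b1, an uptake transporter of organic anions, at 22.7 ± 2.76 CPM with 4-HDHA and 13.9 ± 4.77 CPM with PBS (0.71, SE 0.21, edgeR unadjusted p = 0.00625).

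The CYP1 to CYP3 families hold the P450s most concerned with drugs and other foreign chemicals. Without the Cyp2j genes, all 10 members of these families had a positive fold change, with a median of 0.52 on the log2 scale. The Cyp2j genes, also of the CYP2 family, were grouped with CYP4F, and Cyp2j6 was at -0.09 and Cyp2j9 at 0.67. Of all 19615 genes tested, 10008 were positive. Of the 10, 3 had an unadjusted p under 0.05 and 1 was called by DESeq2, where 7.39% and 1.09% of all genes were, on the higher side. PBS replicate 3 was the lowest of the 10 libraries for 6 of the 10 genes. Without that library all 10 were positive and the median was 0.29. Without 4-HDHA replicate 3 or without 4-HDHA replicate 4, 9 of the 10 were positive, and with adipocyte markers as a covariate, described with Cyp2e1, 6 were.

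Cyp2e1 (chr7:140763739-140774987, plus strand), which oxidises ethanol, acetone and small solvents, had the largest fold change of the 36. It was at 12.3, 3.97, 4.70, 18.6 and 1.12 CPM in 4-HDHA replicates 1 to 5 and at 1.23, 0.678, 0.062, 1.09 and 1.79 CPM in PBS replicates 1 to 5. In 4 of the 5 4-HDHA libraries it was above every PBS library, while 4-HDHA replicate 5 lay inside the PBS range. The mean was 8.13 ± 7.15 CPM with 4-HDHA and 0.970 ± 0.645 CPM with PBS (SD, n = 5 each), and the log2 fold change was 3.07 (SE 0.84, 95% interval 1.21 to 4.93, edgeR unadjusted p = 0.00395, adjusted p = 0.291). DESeq2 gave 3.05 with an adjusted p of 0.00688. Without 4-HDHA replicate 4 the edgeR fold change was 2.49.

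Most adipocyte markers were also higher with 4-HDHA, though none passed edgeR's test after adjustment. Of 14 adipocyte markers, 13 were tested and 12 had a positive fold change. At an unadjusted edgeR p under 0.05, 7 were higher (7.39% of all genes tested were) and 1 (Pparg) was lower (7.45% were). DESeq2 called 5 higher after adjustment, where it called 1.09% of genes. The summed level of the 14 markers was 337, 194, 201, 426 and 163 CPM in 4-HDHA replicates 1 to 5. In PBS replicates 1 to 5 it was 156, 167, 121, 151 and 149 CPM. Over the 4-HDHA libraries, the order of the summed level was that of Cyp2e1: replicate 4 was highest, then 1, 3, 2 and 5. Over the PBS libraries the orders differed: the sum was highest in replicate 2, then 1, 4, 5 and 3, and Cyp2e1 in replicate 5, then 1, 4, 2 and 3. The adipokine gene Adipoq averaged 6.04 ± 6.61 CPM with 4-HDHA and 0.400 ± 0.239 CPM with PBS, and the complement factor D gene Cfd 19.3 ± 18.2 CPM with 4-HDHA and 1.20 ± 0.699 CPM with PBS. In a fit with the mean log2 level of the 13 tested markers as a covariate, chosen after seeing the data, the log2 fold change of Cyp2e1 was 0.32 (unadjusted p = 0.614). That marker mean was higher in every 4-HDHA library than in every PBS library (0.0965 to 1.71 against -1.87 to -0.296, in SD units). The covariate and the group thus overlap in what they describe. In that fit none of the 36 genes had an unadjusted p under 0.05 on the higher side, and each had an adjusted edgeR p of 0.9996. The share of all genes at that unadjusted level was not counted for this fit. The loss of calls is therefore not shown to be particular to the 36. Other markers had a similar order: the summed fibroblast markers were highest in 4-HDHA replicate 4, then 1, 2, 3 and 5. In the PBS libraries they were highest in replicate 3, then 1, 5, 2 and 4. All 10 fibroblast and all 14 smooth muscle markers also had a positive fold change, and neither list was fitted as a covariate. Whether Cyp2e1 came from fat cells, from other cells that differed in amount, or from a change within colon cells cannot be told apart in these data.

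**Figure D3:**
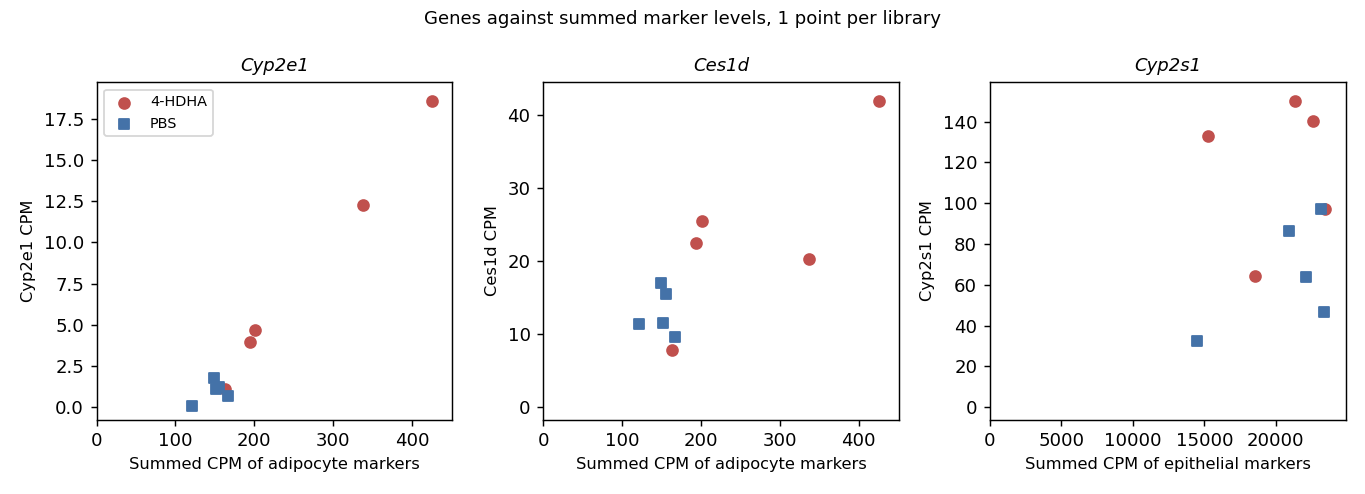
Cyp2e1 (left) and Ces1d (centre) CPM against the summed CPM of 14 adipocyte markers, and Cyp2s1 CPM against the summed CPM of 17 epithelial markers (right), 1 point per library, circles for 4-HDHA and squares for PBS. The 4-HDHA libraries with the highest adipocyte sums, 426 and 337 CPM, hold the highest Cyp2e1 values, 18.6 and 12.3 CPM, while the 2 groups span a similar range of epithelial sums.

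The Cyp2c genes varied widely between the 4-HDHA libraries. Cyp2c65 (chr19:39061015-39093944, plus strand), an intestinal P450 of the mouse, was at 9.35, 8.12, 1.64, 2.99 and 1.46 CPM with 4-HDHA and at 0.919, 2.18, 1.19, 1.73 and 2.31 CPM with PBS. Only 4-HDHA replicates 1, 2 and 4 were above all PBS libraries, and the other two lay among them. The log2 fold change was 1.50 (SE 0.55, 95% interval 0.28 to 2.71, edgeR unadjusted p = 0.0203, adjusted p = 0.307), and without 4-HDHA replicate 1 it was 1.09 with an unadjusted edgeR p of 0.0664. Its neighbour Cyp2c55, which in mouse colon hydroxylates arachidonic acid, followed the same libraries: 30.0 and 22.1 CPM in 4-HDHA replicates 1 and 2, and 0 counts in 4-HDHA replicate 5, where a count of 0 allows up to 0.0466 CPM. The PBS libraries of Cyp2c55 ranged from 0.465 to 5.93 CPM, and the fold change of 2.11 had a standard error of 1.18 and an edgeR unadjusted p of 0.101. Without 4-HDHA replicate 5 it was 2.43 (edgeR unadjusted p = 0.0119), and without 4-HDHA replicate 1 it was 1.46 (edgeR unadjusted p = 0.256). Cyp2c68 averaged 32.4 ± 19.7 CPM with 4-HDHA and 22.5 ± 12.5 CPM with PBS (0.53, SE 0.63), with PBS replicate 3 at 2.19 CPM.

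Cyp2s1 (chr7:25802475-25816913, minus strand), a P450 found mainly in epithelia outside the liver, was at 140, 150, 133, 64.3 and 97.0 CPM with 4-HDHA and at 46.9, 63.6, 32.3, 86.6 and 97.0 CPM with PBS. Replicates 1, 2 and 3 with 4-HDHA were above all PBS libraries, replicate 5 was level with the highest PBS library, and replicate 4 lay among them. The log2 fold change was 0.84 (SE 0.31, 95% interval 0.15 to 1.53, edgeR unadjusted p = 0.0217, adjusted p = 0.309). Leaving out 4-HDHA replicate 2 gave an edgeR unadjusted p = 0.0530, and leaving out PBS replicate 1 gave an edgeR unadjusted p = 0.0518. Epithelial markers did not separate the groups: of 17, 7 had a positive and 10 a negative fold change, with a median of -0.08, and 1 (Cdx2) had an unadjusted p under 0.05, on the lower side.

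The most abundant P450, Cyp2d34 (chr15:82615965-82620945, minus strand), was at 742, 760, 521, 597 and 643 CPM with 4-HDHA and at 618, 335, 215, 403 and 699 CPM with PBS. Its lowest 3 libraries were all PBS libraries, but 2 PBS libraries lay within the 4-HDHA range, and the log2 fold change was 0.52 (SE 0.29, 95% interval -0.11 to 1.15, edgeR unadjusted p = 0.0946). Without PBS replicate 5 it was 0.73 (edgeR unadjusted p = 0.0234). Cyp3a13, a P450 of the family that handles many drugs, averaged 133 ± 23.4 CPM with 4-HDHA and 101 ± 42.2 CPM with PBS (0.40, SE 0.30). Cyp2d26 averaged 9.44 ± 8.26 CPM with 4-HDHA and 7.41 ± 3.14 CPM with PBS (0.35, SE 0.54), and Cyp2f2, known in mouse lung for activating naphthalene, averaged 10.6 ± 6.12 CPM with 4-HDHA and 7.49 ± 5.10 CPM with PBS (0.51, SE 0.74). None of these 4 genes had an unadjusted p under 0.05.

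**Figure D4:**
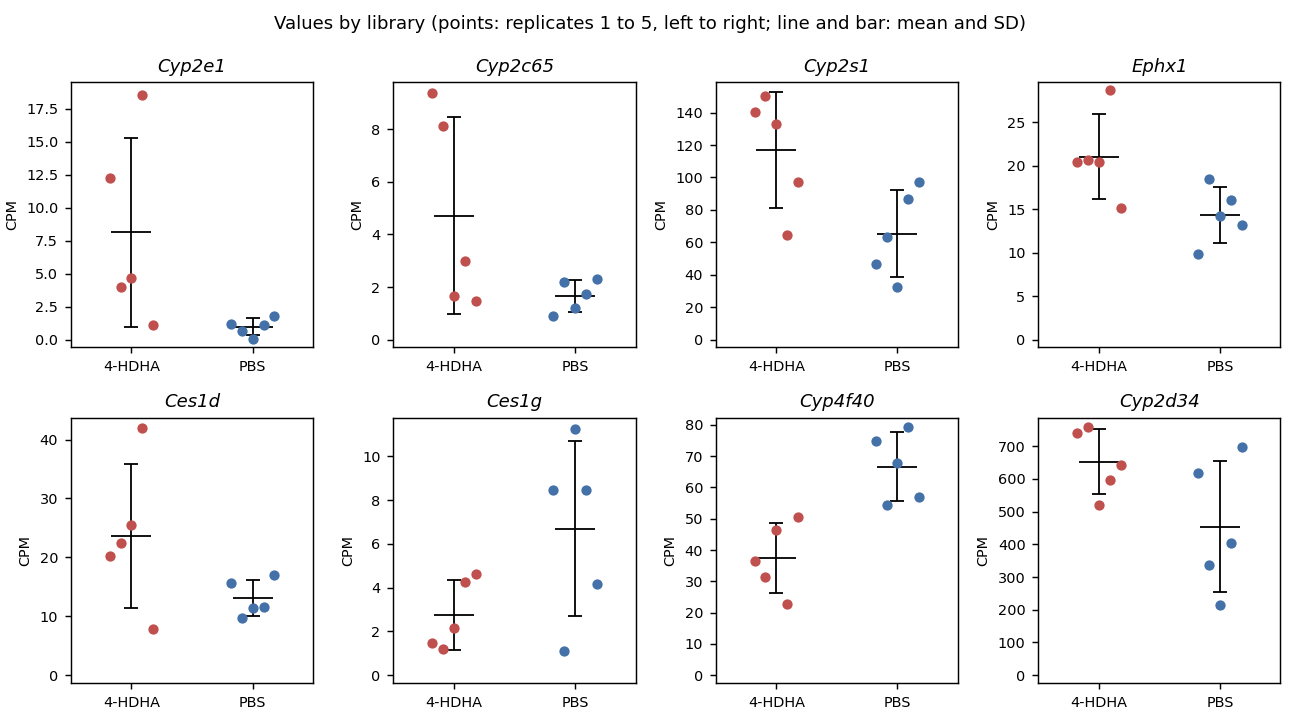
CPM (y axis) in each library (points, replicates 1 to 5 from left to right) for the 7 genes with an unadjusted edgeR p under 0.05 and for Cyp2d34, with 4-HDHA left and PBS right; lines and bars are the mean and SD. Cyp4f40 is the only panel in which the groups do not overlap, at 22.8 to 50.4 CPM with 4-HDHA and 54.3 to 79.5 CPM with PBS.

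The CYP4F enzymes hydroxylate the far end of fatty acids and eicosanoids, and in the mouse Cyp4f14 does so to leukotriene B4. Cyp4f40 (chr17:32658900-32676914, plus strand) was at 36.6, 31.4, 46.5, 22.8 and 50.4 CPM in 4-HDHA replicates 1 to 5 and at 74.7, 54.3, 67.9, 79.5 and 57.0 CPM in PBS replicates 1 to 5. Every 4-HDHA library was below every PBS library. The log2 fold change was -0.83 (SE 0.21, 95% interval -1.29 to -0.37, edgeR unadjusted p = 0.00217, adjusted p = 0.291), and DESeq2 gave -0.82 with an adjusted p of 0.0444. With any 1 library left out the edgeR fold change lay between -0.96 and -0.67, with unadjusted p between 0.000859 and 0.00692. With the adipocyte covariate it was -0.47 (edgeR unadjusted p = 0.124). Epithelial markers did not separate the groups, as given for Cyp2s1.

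Cyp4f14 (chr17:32905070-32917342, minus strand), at the same chromosomal locus, did not share this pattern. It was at 65.2, 62.9, 69.0, 37.8 and 102 CPM with 4-HDHA and at 101, 35.7, 43.5, 142 and 71.9 CPM with PBS. The PBS libraries spanned the whole 4-HDHA range and the log2 fold change was -0.22 (SE 0.37, 95% interval -1.05 to 0.60); the difference between the 2 genes' fold changes was not tested. The longest transcripts of Cyp4f14 and Cyp4f40 are 76.8% identical and share no 150-base window, the read length. The arachidonic acid epoxygenase Cyp2j6 averaged 46.7 ± 14.3 CPM with 4-HDHA and 49.7 ± 7.87 CPM with PBS (-0.09, SE 0.20), and Cyp2j9 4.06 ± 2.01 CPM with 4-HDHA and 2.55 ± 0.673 CPM with PBS (0.67, SE 0.35, edgeR unadjusted p = 0.0829); without 4-HDHA replicate 5 the value of Cyp2j9 was 0.86 (edgeR unadjusted p = 0.0181).

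The epoxide hydrolases turn epoxides into diols, Ephx1 mainly those of foreign chemicals and Ephx2 those of fatty acids, docosahexaenoic acid included. Ephx1 (chr1:180976210-181020904, minus strand) was at 20.4, 20.7, 20.5, 28.7 and 15.1 CPM with 4-HDHA and at 9.90, 18.5, 14.2, 16.1 and 13.1 CPM with PBS. In 4 of the 5 4-HDHA libraries it was above all PBS libraries, and replicate 5 lay among them. The log2 fold change was 0.55 (SE 0.20, 95% interval 0.11 to 1.00, edgeR unadjusted p = 0.0196, adjusted p = 0.306), and lay between 0.43 and 0.66 with any 1 library left out. Ephx2 (chr14:66084374-66112386, minus strand) was at 29.0, 31.3, 23.3, 37.4 and 26.5 CPM with 4-HDHA and at 39.6, 15.8, 34.0, 30.0 and 32.2 CPM with PBS. The PBS libraries held its highest and lowest values, with a fold change of -0.04 (SE 0.22, 95% interval -0.53 to 0.45).

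Carboxylesterases of the Ces1 cluster on chromosome 8 pointed in opposite directions. Ces1d (chr8:93166068-93197838, minus strand), a triacylglycerol hydrolase of mouse liver and fat, was at 20.3, 22.5, 25.6, 42.0 and 7.84 CPM with 4-HDHA and at 15.6, 9.68, 11.4, 11.6 and 17.0 CPM with PBS. Replicates 1 to 4 with 4-HDHA were above all PBS libraries and replicate 5 was below them. The log2 fold change was 0.86 (SE 0.36, 95% interval 0.07 to 1.64, edgeR unadjusted p = 0.0353, adjusted p = 0.318). Without 4-HDHA replicate 4, the library with the highest sum of adipocyte markers, it was 0.55 (edgeR unadjusted p = 0.107). With the adipocyte covariate it was 0.22 (edgeR unadjusted p = 0.662).

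Ces1g (chr8:93302369-93337308, minus strand), a lipid hydrolase of mouse liver and intestine, was at 1.49, 1.21, 2.14, 4.28 and 4.63 CPM with 4-HDHA and at 8.45, 1.13, 11.3, 8.47 and 4.18 CPM with PBS. PBS replicates 1, 3 and 4 were above all 4-HDHA libraries, and PBS replicate 2 was the lowest of all. The log2 fold change was -1.28 (SE 0.58, 95% interval -2.55 to -0.01, edgeR unadjusted p = 0.0482, adjusted p = 0.335), and its unadjusted p stayed under 0.05 in 6 of 18 alternatives. Ces1f ranged from 1.38 to 11.4 CPM with 4-HDHA and from 3.22 to 28.9 CPM with PBS (-1.51, SE 0.70, edgeR unadjusted p = 0.0539). Single libraries decided that value, which was -2.41 without 4-HDHA replicate 3 (edgeR unadjusted p = 0.0026) and -0.82 without PBS replicate 4 (edgeR unadjusted p = 0.221). Ces1e ranged from 0.297 to 3.13 CPM with 4-HDHA and from 0.279 to 3.07 CPM with PBS (-0.61, SE 0.76). Without 4-HDHA replicate 3 it was -1.77 (edgeR unadjusted p = 0.0164), and without PBS replicate 4 it was -0.17. Ces1d and Ces1g transcripts are 80.5% identical and share no 150-base window.

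The abundant Ces2 esterases showed no difference beyond the spread. Ces2c (chr8:104847068-104854483, plus strand) was at 447, 407, 244, 268 and 289 CPM with 4-HDHA and at 426, 131, 102, 332 and 585 CPM with PBS. The PBS libraries spread wider than the 4-HDHA libraries on both sides, and the fold change was 0.07 (SE 0.43, 95% interval -0.88 to 1.02). Ces2e averaged 311 ± 67.0 CPM with 4-HDHA and 355 ± 231 CPM with PBS (-0.19, SE 0.42), and Ces2a 119 ± 41.5 CPM with 4-HDHA and 86.7 ± 51.5 CPM with PBS (0.45, SE 0.46). The Ces2 transcripts are 81.9% to 83.5% identical in pairs.

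All 4 UDP-glucuronosyltransferases had a small negative fold change and none had an unadjusted p under 0.05. Ugt2b34 (chr5:86889767-86906937, minus strand) was at 212, 176, 261, 114 and 185 CPM with 4-HDHA and at 224, 258, 112, 358 and 201 CPM with PBS. The PBS libraries held both ends of the range, and the fold change was -0.28 (SE 0.29, 95% interval -0.92 to 0.36). Ugt1a7c averaged 116 ± 40.2 CPM with 4-HDHA and 145 ± 49.4 CPM with PBS (-0.31, SE 0.28), and Ugt1a6a 23.0 ± 7.21 CPM with 4-HDHA and 27.9 ± 21.3 CPM with PBS (-0.28, SE 0.46). Ugt1a1, which conjugates bilirubin, averaged 11.4 ± 2.78 CPM with 4-HDHA and 12.0 ± 9.16 CPM with PBS (-0.08, SE 0.46). PBS replicate 4 alone held the highest value of all 3 Ugt1a genes, and without it the median of the 4 genes was 0.11. The sign of Ugt1a1 turned under limma on FPKM and with epithelial markers as a covariate.

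The 3 Ugt1a values are uncertain because these genes are read from the same stretch of chromosome 1, with different first exons joined to shared later exons. Of the 150-base windows of the transcripts shown, 56.1% of Ugt1a1, 97.2% of Ugt1a6a and 38.5% of Ugt1a7c occur in another Ugt1a gene as well. In the longest annotated transcript of each gene the shares were 56.1%, 100% and 68.3%. In the Ugt1a6a transcript shown, 954 of 2265 bases lie before the shared exons, so the later exons alone do not account for its share. The first window of the longest Ugt1a6a transcript also occurs in Ugt1a6b and Ugt1a7c. In the junctions, the last 30 bases of the exon before (lower case) run into the first 30 bases of the shared exon at chr1:88215044-88215175 (capitals; mm10, plus strand), from GENCODE M21 transcripts.
Ugt1a1: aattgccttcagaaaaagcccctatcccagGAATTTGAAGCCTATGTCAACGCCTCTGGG
Ugt1a6a: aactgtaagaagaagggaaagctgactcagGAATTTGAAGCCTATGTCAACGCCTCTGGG
Ugt1a7c: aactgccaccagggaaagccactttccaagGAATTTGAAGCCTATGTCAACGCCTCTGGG
Reads that lie within the shared exons cannot tell the 3 genes apart. The sources used here do not say how the other reads were divided. By their longest transcripts, another 5 members share from 3.35% to 8.83% of their windows with another gene (Cyp2c65, Cyp2c68, Ces2a, Ces2c and Abcb1a), and 28 share none.

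Sulfotransferases add sulfate to phenols, steroids and catechols. Sult1b1 (chr5:87513339-87538195, minus strand), the most abundant, was at 322, 289, 197, 238 and 271 CPM with 4-HDHA and at 364, 211, 166, 237 and 337 CPM with PBS. The PBS libraries held both ends of the range, and the means were 264 ± 47.8 CPM with 4-HDHA and 263 ± 84.4 CPM with PBS, with a 95% interval of the log2 difference from -0.49 to 0.49. Sult1a1 averaged 48.6 ± 35.4 CPM with 4-HDHA and 48.1 ± 30.7 CPM with PBS (0.02, SE 0.55), and Sult1c2 16.2 ± 7.38 CPM with 4-HDHA and 24.1 ± 9.56 CPM with PBS (-0.57, SE 0.39).

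The efflux pumps P-glycoprotein (Abcb1a) and BCRP (Abcg2) sit on the luminal face of the colonic epithelium. Abcb1a (chr5:8660077-8748575, plus strand) was at 281, 223, 157, 143 and 143 CPM with 4-HDHA and at 340, 234, 63.1, 208 and 270 CPM with PBS. PBS replicate 3 was lowest and PBS replicate 1 highest, and the fold change was -0.24 (SE 0.37, 95% interval -1.06 to 0.58). Abcg2 averaged 84.0 ± 17.7 CPM with 4-HDHA and 97.6 ± 29.6 CPM with PBS (-0.22, SE 0.22). With epithelial markers as a covariate the fold change of Abcb1a was 0.22.

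Single libraries stood apart across several families. PBS replicate 3 was the lowest of the 10 libraries for 16 of the 36 genes, and its median deviation from the gene means was -0.81 on the log2 scale. The other 9 libraries had medians between -0.29 and 0.31. PBS replicate 3 also had the lowest summed epithelial markers, 14502.5 CPM, and 4-HDHA replicate 3 the next lowest, 15262.1 CPM. PBS replicate 4 was highest for 8 genes, among them the 3 Ugt1a genes, Ugt2b34 and Cyp4f40. In an edgeR fit with the mean log2 level of the epithelial markers as a covariate, the median log2 fold change of the 36 was 0.15. In it 7 of the 36 had an unadjusted p under 0.05 on the higher side and 2 on the lower side, and none passed after adjustment. The share of all genes at that level was not counted for this fit. These 2 counts therefore cannot be set against those of the main fit as a result about the members.

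**Figure D5:**
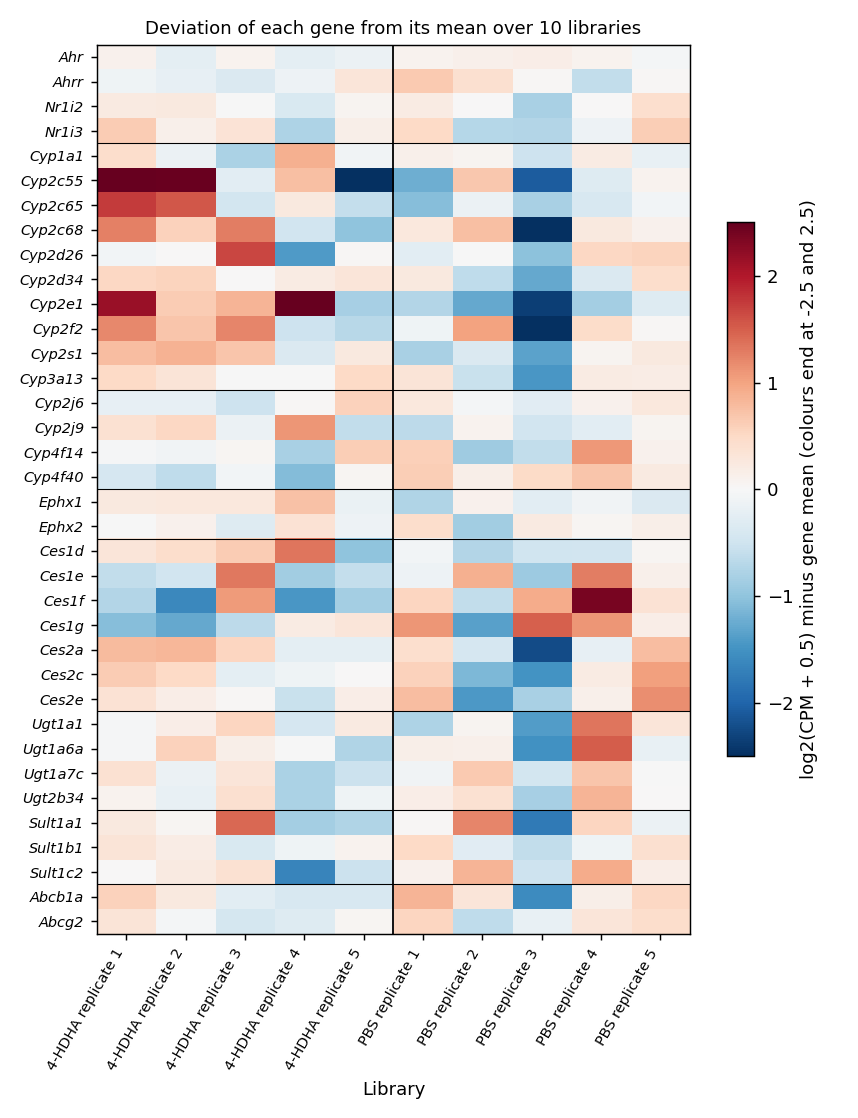
Deviation of each of the 36 genes (rows, by family) from its mean over the 10 libraries (columns, 4-HDHA left of the line and PBS right), as log2(CPM + 0.5); red is above and blue below the mean. The PBS replicate 3 column is blue in most rows, with a median of -0.81, and the Cyp4f40 row is red in all 5 PBS libraries.

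Markers of other tissues were counted in the same way. All 14 smooth muscle markers and all 10 fibroblast markers had a positive fold change, with medians of 0.86 and 0.78, and 5 of each had an unadjusted p under 0.05 on the higher side (7.39% of all genes tested). Their sums overlapped between groups, from 1519.26 to 8590.33 CPM with 4-HDHA and from 1128.18 to 5359.36 CPM with PBS for smooth muscle, and from 1647.9 to 7699.63 CPM with 4-HDHA and from 1183.48 to 2822.89 CPM with PBS for fibroblasts. The 17 differentiated colonocyte markers were split, 8 positive and 9 negative, with a median of -0.02. Of 12 squamous and skeletal muscle markers all were positive and 1 had an unadjusted p under 0.05, with a median of 0.91. Of 10 macrophage and neutrophil markers 6 were positive and 1 had an unadjusted p under 0.05, and their sum was 806 to 2128 CPM with 4-HDHA and 782 to 1864 CPM with PBS. Of 8 plasma and B cell markers 6 were positive, with a median of 2.02 and with 1 at an unadjusted p under 0.05 on each side. Their sum was 251, 162, 281, 184 and 868 CPM in 4-HDHA replicates 1 to 5 and 409, 371, 354, 314 and 549 CPM in PBS replicates 1 to 5. By this sum 4 of the 5 4-HDHA libraries were below every PBS library and 1 was above. The sum is decided by the most abundant markers and did not follow the median. The part of these tissues in the fold changes of the xenobiotic genes was not tested.

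Beyond the 36 genes, the enzymes of both phases were counted from wider lists. Of 46 other phase I enzymes and redox partners tested, 29 had a positive fold change, 9 had an unadjusted p under 0.05 on the higher side and 1 on the lower side, with a median of 0.23. Among all 19615 genes tested, 10008 were positive, and 7.39% were at that level on the higher side and 7.45% on the lower. Aox1, an aldehyde oxidase, averaged 5.65 ± 3.03 CPM with 4-HDHA and 1.82 ± 0.517 CPM with PBS (1.63, SE 0.43, DESeq2 adjusted p = 0.0148). Fmo2, a flavin monooxygenase, averaged 72.7 ± 29.8 CPM with 4-HDHA and 33.7 ± 8.75 CPM with PBS (1.11, SE 0.31, DESeq2 adjusted p = 0.0408). Akr1c13, an aldo-keto reductase, averaged 88.4 ± 17.4 CPM with 4-HDHA and 124 ± 19.1 CPM with PBS (-0.49, SE 0.15), and Fmo5 22.4 ± 7.46 CPM with 4-HDHA and 12.7 ± 3.87 CPM with PBS (0.82, SE 0.28).

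Of 41 other phase II enzymes tested, 28 had a negative fold change; 2 had an unadjusted p under 0.05 on the higher side and 3 on the lower side, with a median of -0.12, against 9607 negative fold changes and the same shares among all genes. The glutathione transferases Gstk1 and Gsta1 were among the lower ones, Gstk1 at 16.7 ± 3.54 CPM with 4-HDHA and 26.0 ± 5.20 CPM with PBS (-0.63, SE 0.18) and Gsta1 at 13.8 ± 7.82 CPM with 4-HDHA and 29.7 ± 10.8 CPM with PBS (-1.10, SE 0.39). Inmt, an N-methyltransferase of indolamines, averaged 17.5 ± 9.37 CPM with 4-HDHA and 2.81 ± 2.69 CPM with PBS (2.64, SE 0.78, DESeq2 adjusted p = 0.0167). Sult5a1 averaged 1.28 ± 1.01 CPM with 4-HDHA and 0.438 ± 0.238 CPM with PBS (1.53, SE 0.63). None of the 16 other transporters tested had an unadjusted p under 0.05; 9 were positive and 7 negative. No gene of these lists passed edgeR's test after adjustment over all genes.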

How the data were processed

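RNA from 10 colons, 5 per group, was analysed. Libraries were paired-end, selected for poly(A) RNA and strand-marked with dUTP, per the labels' protocols. The build mm10 and the tools HISAT2 2.0.4, cutadapt 1.9, DESeq2, StringTie 1.3.4d and edgeR are those of the submitters' processing notes, which give no order or settings here. The authors deposited whole-number counts per gene, not normalized, and FPKM values with gene names and positions. The counts of 55401 genes, 32132 with a count, went into edgeR 4.0.16 (R 4.3.3; TMM scaling, filterByExpr, robust quasi-likelihood F test, Benjamini-Hochberg adjustment over 19615 genes, threshold 0.05), and the code was checked on simulated data. DESeq2 1.42.0 on counts and limma 3.58.1 on log2(FPKM + 1) or log2(FPKM + 0.1) were alternatives. Standard errors are those implied by the F statistic. CPM values use TMM-scaled totals. A count of 0 allows up to 3 counts, for counting error only.

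The 36 genes and all lists were chosen with earlier results of these data known, so no test was made over a list. Values in every library are given for the sensors, Cyp1a1, members with an unadjusted p under 0.05 or groups that do not overlap, and the member with the highest FPKM in each family. The fit with adipocyte markers as a covariate was added after seeing the data. Of each wider list up to 4 genes with the smallest p are named. Windows and junctions come from GENCODE M21 transcripts, in which 33 of the 36 members have the same position as in the deposited table, and promoters from RefSeq.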

Additional observations from a re-analysis of the deposited data

Results flagged for a closer look

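In 5 of 72 sets of 5 libraries (36 genes in 2 groups), 1 library stood far from the other 4 by Dixon's test, which chance does in about 1 in 20 sets. In 4-HDHA replicate 3, Cyp2d26 was at 23.8 CPM with the next library at 7.24 CPM, Ces1e at 3.13 CPM with the next at 0.543 CPM, Ces1f at 11.4 CPM with the next at 2.94 CPM, and Sult1a1 at 109 CPM with the next at 47.1 CPM. In PBS replicate 4, Ces1f was at 28.9 CPM with the next library at 10.4 CPM. Of the 5, 4 fell in 4-HDHA replicate 3; the cause was not tested.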

How the results depend on the processing

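Each result was recomputed under 18 alternatives. DESeq2 called 312 genes and 2 of the 36 members after adjustment, where edgeR called none. The share of all genes at an unadjusted p under 0.05 was counted for the main fit only. The members with an unadjusted p under 0.05 numbered 5 higher and 2 lower; limma on log2(FPKM + 1) gave 1 lower, the replicate block 3 higher, and the adipocyte covariate, added after seeing the data, 0 higher and 1 lower (median -0.22). With 1 library left out, adjusted calls stayed at 0 over all genes and over members, the count of higher members ranged from 2 (without 4-HDHA replicate 2) to 7, that of lower members from 1 (without 4-HDHA replicate 1 or 2, or PBS replicate 1, 3 or 4) to 3, and the median log2 fold change from -0.14 to 0.13. Cyp2e1, Cyp4f40 and Ephx1 kept an unadjusted p under 0.05 in 17 of 18 alternatives, the exception being the adipocyte covariate, Cyp2s1 in 14, Cyp2c65 in 12, Ces1d in 7 and Ces1g in 6.

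Of the 36 members, 17 kept their sign under every alternative and 19 did not. The replicate numbers did not pair the libraries (correlation of same-numbered deviations from -0.316 to 0.0836; 1 of 5 libraries correlated best with its own number), and under the replicate block the sign turned for Ces2e (0.0547), Ugt1a1 (0.22) and Sult1a1 (-0.12), while 3 members were higher. Under limma, Ces2e was 0.0634 on log2(FPKM + 1) and 0.0664 on log2(FPKM + 0.1), and Ugt1a1 0.12 and 0.20. Without a filter on low counts Sult1a1 was -0.0018. With the epithelial covariate, Cyp2j6 was 0.0433, Ces2e 0.0584, Ugt1a1 0.11, Sult1a1 -0.16 and Abcb1a 0.22. With the adipocyte covariate, Nr1i2 was -0.21, Nr1i3 -0.0711, Cyp1a1 -1.43 (unadjusted p = 0.0388), Cyp2c68 -0.22, Cyp2f2 -0.28, Cyp3a13 -0.0806, Cyp2j9 -0.12, Ces2a -0.18, Ces2c -0.65, Sult1a1 -0.0088 and Sult1b1 -0.38. With 1 library left out, the sign turned for Ces2c (-0.16 to 0.42), Ces2e (-0.42 to 0.16), Cyp1a1 (-0.0875 to 0.65), Cyp2d26 (-0.34 to 0.60), Cyp2j6 (-0.29 to 0.011), Cyp4f14 (-0.42 to 0.10), Ephx2 (-0.20 to 0.0746), Nr1i2 (-0.13 to 0.14), Nr1i3 (-0.0005 to 0.40), Sult1a1 (-0.52 to 0.41), Sult1b1 (-0.13 to 0.15), Ugt1a1 (-0.32 to 0.45) and Ugt1a6a (-0.53 to 0.28). The causes were not tested. Counts of 8 to 86 per library limit what Cyp1a1 can show.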
